A study of Homo sapiens with 6 samples.

Results

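The genes described here are 10 regulators of the entry into and exit from mitosis, listed by name, and all 10 were found among the 15651 genes of the deposited table. They are CDK1, the cyclins CCNA2, CCNB1 and CCNB2, the mitotic kinases PLK1, AURKA and AURKB, the phosphatases CDC25B and CDC25C, and CDC20. RNA sequencing was carried out on 6 libraries of MDA-MB-231 cells, an established human triple-negative breast cancer (TNBC) line, of which 3 were made from cultures given the solvent DMSO and 3 from cultures given BRL-50481, an inhibitor of the cyclic nucleotide phosphodiesterase PDE7A. The treatment text of the labels and the study's methods give 50 μM for 72 h, whereas the treatment tag of the treated samples gives 5 μM and 48 h. The comparison asks which transcripts changed when PDE7A was inhibited in these cells, all of which belong to 1 cell line. The libraries held 30750573 to 33446984 reads on genes, and in both groups the mesenchymal markers VIM, CD44, CAV1, AXL and MSN of this line had mean normalized counts of 7965 or more. Of the markers listed as low in this line, PGR had mean normalized counts of 1.67 in DMSO and 5.61 in BRL-50481, CDH1 38.2 and 99.8, GATA3 189 and 278, and EPCAM 764 and 682, while the table lists no ESR1.

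Entry into mitosis is driven by CDK1, a kinase that works only when a cyclin is bound to it. Cyclin A2 serves in S phase and early mitosis, and the B-type cyclins B1 and B2 carry the cell into mitosis. CDC25 phosphatases remove the inhibitory phosphates that hold CDK1 back, Polo-like kinase 1 and Aurora A promote this switch and build the spindle, and Aurora B corrects the attachment of chromosomes. CDC20 then activates the anaphase-promoting complex (APC/C), a ubiquitin ligase that destroys the cyclins and lets the cell leave mitosis. Transcripts of most of these genes accumulate late in the cell cycle, and many of their promoters hold CCAAT boxes, bound by NF-Y, and a cell cycle genes homology region (CHR), through which the DREAM and MYB-FOXM1 complexes act.

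RefSeq start sites were at hand for 9 of the 10 genes, and for each of these the window of 300 bases from 250 before to 50 after the start nearest to the GENCODE canonical transcript was searched on both strands. The words searched were CCAAT and, as forms of the CHR, TTTGAA or its variants CTTGAA or TTCGAA or TTTAAA. In 9 of 9 windows there was a CCAAT, against 34.6% of 35116 windows of that length over all genes, and 4 of the 9 held 2 or more, against 10.8%. One of the 4 CHR-type words lay in 8 of 9 windows, against 32.2%. In 5 windows, those of CCNB1, PLK1, CCNB2, CCNA2 and CDC25C, such a word began 28 to 30 bases before the start, which was the case in 1.03% of all windows. The position was chosen after the windows had been read, the words are short, and a match describes letters only.

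The stretches from 160 to 21 bases before the RefSeq start are given for the 6 genes in which the stretch lies outside every annotated exon of the gene. They let 3 cyclin genes with larger changes be read against 3 genes with smaller ones. For AURKB, 1 of those 3, the stretch lies downstream of the canonical start, within the gene, and is not the canonical promoter. The sequences are those of RefSeq on GRCh38.p14, written 5′ to 3′ on the strand of the gene, with CCAAT (or ATTGG where it lies on the other strand) and the CHR-type words in capitals.
CCNB1, chr5:69166990-69167129, plus strand: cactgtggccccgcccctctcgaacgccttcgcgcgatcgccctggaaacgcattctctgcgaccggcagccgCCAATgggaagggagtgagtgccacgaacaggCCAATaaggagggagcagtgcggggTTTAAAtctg
CCNB2, chr15:59104986-59105125, plus strand: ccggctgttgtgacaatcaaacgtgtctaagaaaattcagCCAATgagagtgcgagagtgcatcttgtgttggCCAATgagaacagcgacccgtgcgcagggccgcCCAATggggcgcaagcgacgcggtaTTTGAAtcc
CCNA2, chr4:121823904-121824043, minus strand: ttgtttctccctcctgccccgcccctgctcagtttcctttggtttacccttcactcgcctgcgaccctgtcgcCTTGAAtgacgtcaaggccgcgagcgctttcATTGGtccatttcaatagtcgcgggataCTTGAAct
CDC20, chr1:43358821-43358960, plus strand: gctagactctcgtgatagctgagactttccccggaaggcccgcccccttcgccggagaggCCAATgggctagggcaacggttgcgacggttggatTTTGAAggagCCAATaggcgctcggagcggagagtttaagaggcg
CDC25B, chr20:3796150-3796289, plus strand: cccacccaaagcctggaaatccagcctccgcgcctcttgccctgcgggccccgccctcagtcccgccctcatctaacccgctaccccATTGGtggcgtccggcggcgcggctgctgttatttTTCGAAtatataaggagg
AURKB, chr17:8210270-8210409, minus strand: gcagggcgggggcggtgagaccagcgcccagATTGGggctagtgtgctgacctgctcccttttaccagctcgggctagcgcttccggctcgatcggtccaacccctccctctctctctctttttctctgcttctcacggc
The 3 cyclin stretches each end in a CHR-type word some way after a CCAAT. In CDC20 the word TTTGAA lies between the 2 CCAAT boxes, in CDC25B the word is TTCGAA, beginning 38 bases before the start, and the AURKB window holds none of the 4. The AURKB window belongs to a start 326 bases downstream of that of the canonical transcript. It lies wholly within the gene, and the stretch before the canonical start was not searched.

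All 10 genes were higher in BRL-50481-treated cells at an adjusted p-value under 0.05, where 28.9% of the 15246 genes tested were higher. The values are normalized counts, read counts per gene divided by a size factor for the library, and were compared as log2 of the normalized count with 1 added, using limma with Benjamini-Hochberg adjustment over all genes tested. The 4 largest rises, those of CCNB1, PLK1, CCNB2 and AURKA, passed 1 on the log2 scale, which 5.06% of genes did upward with an adjusted p-value under 0.05. The median log2 fold change of the 10 genes was 0.77, against 0.015 over all genes tested. In each of the 10 genes every BRL-50481 library lay above every DMSO library, which held for 31.9% of genes tested, and for a single gene the two-sided exact permutation test then gives p = 0.1, the smallest that 3 libraries against 3 allow. Because whole cultures were sequenced, more cells in late cell cycle stages and more of a transcript in each cell cannot be told apart. The markers of the line moved with treatment too. The mesenchymal markers were 5 of 5 higher, from AXL (log2 fold change 0.12, adjusted p = 0.0235 by limma) to VIM (log2 fold change 0.58, adjusted p = 2.91e-07). The epithelial and luminal markers CDH1 (log2 fold change 1.39, adjusted p = 4.28e-05) and GATA3 (log2 fold change 0.57, adjusted p = 0.00234) were higher and EPCAM lower (log2 fold change −0.16, adjusted p = 0.0468), PGR being below the filter. The part of these shifts in the rise of the 10 genes was not tested. The AXL and EPCAM calls were each lost when a library was left out (adjusted p up to 0.0985 and 0.115).

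**Figure D1:**
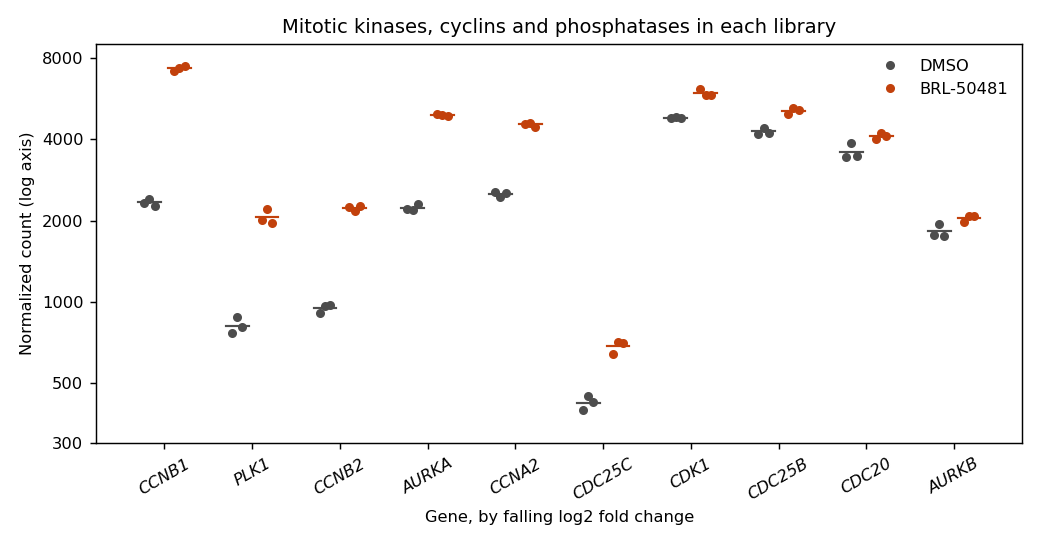
Normalized count (log axis) of the 10 genes in each library, with 3 DMSO points and 3 BRL-50481 points per gene, a bar at each group's mean, and genes ordered by falling log2 fold change. The 2 groups stand far apart for CCNB1, PLK1, CCNB2 and AURKA and come close, without overlap, for CDC20 and AURKB.

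Among the cyclins, CCNB1 (chromosome 5 of hg38, 69167135 to 69178245), which encodes the main mitotic partner of CDK1, rose most. Its normalized counts were 2329, 2406 and 2267 in the DMSO libraries and 7152, 7356 and 7438 in the BRL-50481 libraries. All treated libraries stood at about the same level, far above the controls, a 3.13-fold rise (log2 fold change 1.65, standard error 0.0483, adjusted p = 1.30e-10). Only 1.52% of the genes tested had a larger rise. CCNB2 (chromosome 15, 59105126 to 59125045), the second B-type cyclin, had 909.9, 967 and 977 normalized counts in DMSO and 2253, 2178 and 2274 in BRL-50481. The groups were again well apart, with a 2.35-fold rise (log2 fold change 1.23, standard error 0.0580, adjusted p = 4.10e-09). CCNA2 (chromosome 4, 121816444 to 121823883), the cyclin of S phase and early mitosis, went from 2550.0, 2447 and 2535 to 4562, 4597 and 4452 normalized counts. Its rise was 1.81-fold (log2 fold change 0.85, standard error 0.0483, adjusted p = 1.84e-08), below that of either B-type cyclin.

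CDK1 itself (chromosome 10, 60778331 to 60794852) changed much less than the cyclins it binds. The DMSO libraries held 4784, 4844 and 4801 normalized counts and the BRL-50481 libraries 6139, 5815 and 5834. The lowest treated library was clear of the highest control, and the rise of 23.2% (log2 fold change 0.30, standard error 0.0462, adjusted p = 9.54e-05) was exceeded by 28.8% of all genes tested.

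The 3 mitotic kinases did not move by the same amount. PLK1 (chromosome 16, 23677656 to 23690367), the Polo-like kinase that acts from mitotic entry to cytokinesis, had 765, 879.7 and 805 normalized counts in DMSO and 2006, 2201 and 1954 in BRL-50481, a 2.51-fold rise (log2 fold change 1.33, standard error 0.0708, adjusted p = 1.12e-08). AURKA (chromosome 20, 56369389 to 56392337), the kinase of the centrosome and spindle poles, had 2205, 2194 and 2302 normalized counts in DMSO and 4961, 4916 and 4867 in BRL-50481, a 2.20-fold rise (log2 fold change 1.14, standard error 0.0484, adjusted p = 2.16e-09). Both were far above the spread between replicates. AURKB (chromosome 17, 8204733 to 8210600), the catalytic subunit of the chromosomal passenger complex, had 1775, 1943 and 1761 normalized counts in DMSO and 1981, 2077 and 2086 in BRL-50481. DMSO replicate 2 came close to the lowest treated library, and the rise of 12.2% (log2 fold change 0.17, standard error 0.0586, adjusted p = 0.0262) was the smallest of the 10. It no longer passed the threshold in limma without DMSO replicate 3 (adjusted p = 0.111), without BRL-50481 replicate 2 (adjusted p = 0.0909) or without BRL-50481 replicate 3 (adjusted p = 0.103).

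The CDC25 phosphatases also moved to different degrees. CDC25C (chromosome 5, 138285269 to 138338355), an activator of the CDK1-cyclin B complex at mitotic entry, was the least abundant of the 10 genes, with 399.9, 448 and 425 normalized counts in DMSO and 642, 711 and 703 in BRL-50481. The treated libraries were all above the controls, and the rise was 1.61-fold (log2 fold change 0.69, standard error 0.0799, adjusted p = 8.26e-06). CDC25B (chromosome 20, 3786772 to 3806121), regarded as the starter phosphatase of mitotic entry, had 4192, 4409 and 4228 normalized counts in DMSO and 4941, 5232 and 5121 in BRL-50481. This was a rise of 19.2% (log2 fold change 0.25, standard error 0.0482, adjusted p = 0.000551), of a size that 31.9% of genes tested exceeded.

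CDC20 (chromosome 1, 43358981 to 43363203), the APC/C activator needed for anaphase and mitotic exit, was among the genes with the smaller changes. Its normalized counts were 3440.0, 3883 and 3463 in DMSO and 3993, 4222 and 4109.7 in BRL-50481, so that DMSO replicate 2 lay just under the lowest treated library. The rise of 14.4% (log2 fold change 0.19, standard error 0.0570, adjusted p = 0.0101) did not pass the threshold in limma without DMSO replicate 3 (adjusted p = 0.0552) or without BRL-50481 replicate 2 (adjusted p = 0.0546).

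**Figure D2:**
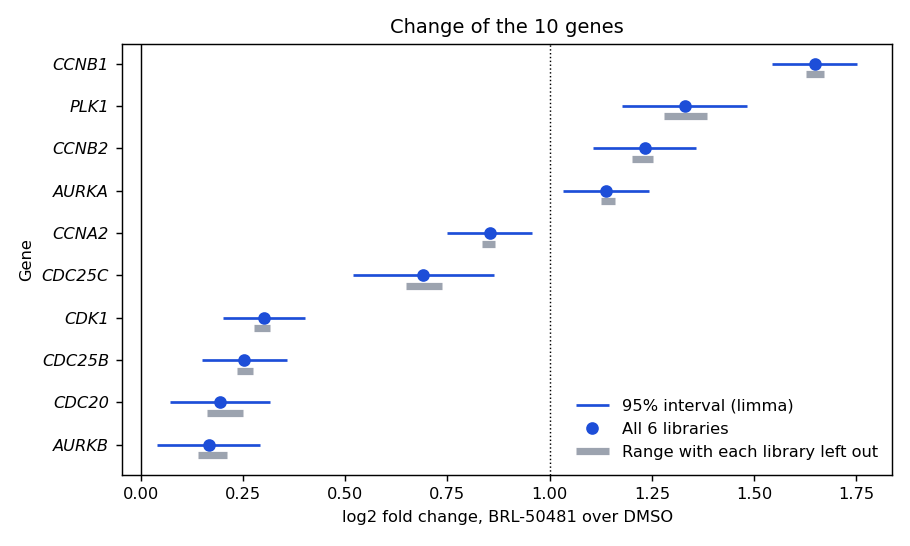
Log2 fold change of BRL-50481 over DMSO (x axis) for each of the 10 genes (y axis), with limma's 95% interval as a blue line, the range over the 6 fits that each leave out 1 library as a grey bar, and a dotted line at 1. The genes fall into 6 with changes of 0.69 to 1.65 and 4 with changes of 0.17 to 0.30, and every interval lies above 0.

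A gap divided the 10 genes, with CCNB1, PLK1, CCNB2, AURKA, CCNA2 and CDC25C at log2 fold changes of 0.69 or more and CDK1, CDC25B, CDC20 and AURKB at 0.30 or less. Among the 9 genes with a RefSeq window, the 5 whose CHR-type word began 28 to 30 bases before the start had log2 fold changes of 0.69 to 1.65, and the other 4 had 0.17 to 0.30. Of those 4, CDK1, CDC20 and CDC25B hold a CHR-type word at another position of the window. The AURKB window lies downstream of the canonical start, so the stretch before that start was not searched. AURKA, the remaining gene above the gap, had no window. This is a description of 9 genes, made after both the windows and the changes had been seen.

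The unequal changes shifted the balance between genes that work together, and 7 pairs fixed by family or complex were compared through their log2 ratio in each library. In each of the 7 pairs the ratios of the 2 groups did not overlap (two-sided exact permutation test, p = 0.1 each and 0.1 after adjustment over the 7 pairs, the smallest that 3 libraries against 3 allow). How often other pairs of genes in these data fail to overlap was not counted. CCNB1, with the largest rise, recurs among the pairs, and each difference restates the unequal log2 fold changes of its 2 genes. Per kilobase of transcript, CDK1 exceeded CCNB1 in DMSO, at ratios of 2.21, 2.16 and 2.28, and fell below it in BRL-50481, at 0.922, 0.849 and 0.842. The transcript of the kinase thus went from the more to the less abundant partner, a difference of −1.35 in log2 ratio. CDC20 relative to CCNB1 went from 1.89 ± 0.0851 to 0.691 ± 0.0137 per kilobase (SD, n = 3 each), a difference of −1.45 in log2 ratio. For CCNA2 relative to CCNB1 the ratio went from 0.795 ± 0.0392 to 0.458 ± 0.0148 (SD, n = 3 each).

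Within families the members also separated. AURKA stood below AURKB in DMSO, with ratios per kilobase of 0.759, 0.690 and 0.799, and above it in BRL-50481, with 1.53, 1.45 and 1.43. The difference in log2 ratio was 0.97, and per kilobase the order of the 2 Aurora kinases was thereby exchanged. That exchange rests on the transcript lengths used. Before division by length, AURKA was already above AURKB in DMSO, at mean normalized counts of 2234 and 1827. CCNB1 gained on CCNB2 by 0.42 in log2 ratio, from 1.80 ± 0.0897 to 2.40 ± 0.0747 per kilobase (SD, n = 3 each). CDC25B lost ground to CDC25C, from 6.77 ± 0.229 to 5.00 ± 0.146 per kilobase (SD, n = 3 each), a difference of −0.44 in log2 ratio. The smallest shift was that of PLK1 against AURKA, the kinase that activates it, at 0.19 in log2 ratio.

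Levels of different genes can be set side by side only per transcript length, here the length of the GENCODE canonical transcript. In DMSO, CDK1 had the highest level, 2546 ± 16.3 normalized counts per kilobase, followed by CDC20 at 2180.3 ± 151, AURKB at 1469 ± 81.7 and CDC25B at 1371 ± 37.3 (SD, n = 3 each). CCNB1 at 1150.2 ± 34.4 and AURKA at 1099 ± 29.3 came next, with libraries that overlapped, and the order then ran CCNA2, CCNB2, PLK1 and CDC25C, the last at 203 ± 11.4. In BRL-50481, CCNB1 led at 3605 ± 72.7 normalized counts per kilobase, ahead of CDK1 at 3139 ± 96.2 (SD, n = 3 each). CDC20 at 2491 ± 69.7 and AURKA at 2417 ± 23.2 could not be ordered, nor could CCNA2 at 1651 ± 27.6, AURKB at 1648 ± 46.7 and CDC25B at 1634 ± 47.0 (SD, n = 3 each). CCNB2, PLK1 and CDC25C kept the last 3 places. The 3 cyclins together went from 2703 ± 20.3 to 6758 ± 57.6 normalized counts per kilobase, 2.50 times the DMSO level, while the 10 genes together went from 11949 ± 328 to 19366 ± 152, 1.62 times (SD, n = 3 each).

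**Figure D3:**
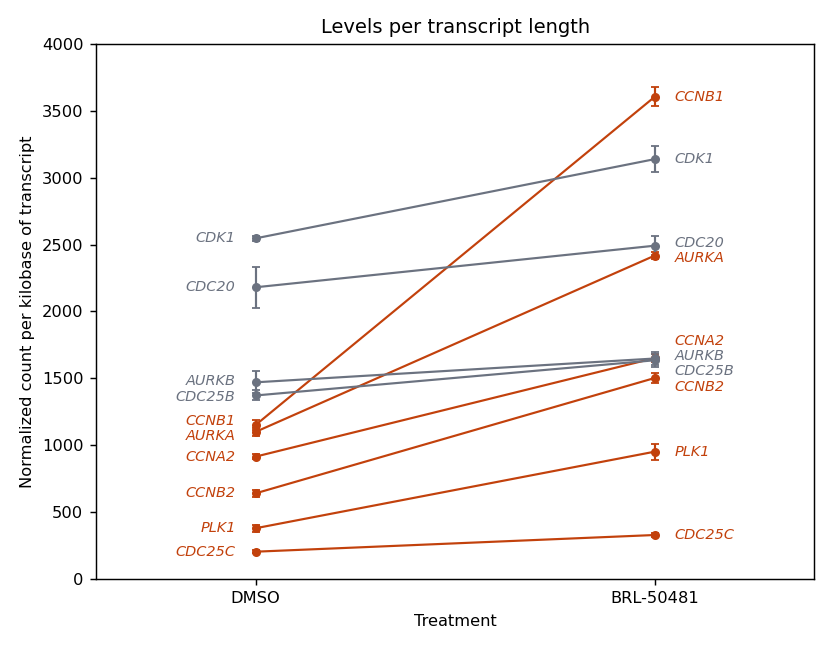
Mean normalized count per kilobase of transcript (y axis) in DMSO and BRL-50481 (x axis) for each gene, with bars for the SD of 3 libraries. Orange marks the 6 genes with a log2 fold change over 0.5 and grey the other 4. CCNB1 ends above CDK1 after starting below it, and AURKA from below to above AURKB.

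Replicates of a group deviated little and partly together. In DMSO replicate 2, 8 of the 10 genes lay above their group mean on the log2 scale (median deviation 0.044), and in DMSO replicate 1 only 1 did (median deviation −0.034), against medians of 0.0071 and −0.0073 over all genes tested in these libraries. In BRL-50481 replicate 2, 8 of the 10 lay above as well (median deviation 0.020), and in BRL-50481 replicate 1, 4 did (median deviation −0.032). Replicate 3 had median deviations of −0.0094 in DMSO and 0.0039 in BRL-50481. DMSO replicate 1 also differed most from the other DMSO libraries over all genes, its chi-square divided by the degrees of freedom being 13.7 and 22.1 against them and 3.99 between the other 2. Without it the 10 log2 fold changes lay between 0.15 for AURKB and 1.65 for CCNB1.

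Among 11445 other genes whose normalized count averaged 100 or more, those whose centred log2 profile over the 6 libraries differed least from the mean profile of the 10 genes were SGSM3, SUN2, MMP14, ALDH2 and LRP10, with root mean square differences of 0.0179 to 0.0257 on the log2 scale. The mean profile is mostly the difference of 0.78 between the groups, and these genes had log2 fold changes of 0.75 to 0.79. The match therefore reflects mainly the size of the change. Of the 10 genes themselves, CCNA2 (0.0582) and CDC25C (0.0621) were closest to that mean profile and CCNB1 (0.434) farthest from it.

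Other genes of the same machinery were grouped by role in 4 lists of 70 genes, of which 69 could be tested, with PLK5 not among the genes of the table. Across the lists 29 genes were higher and 23 lower, the median change on the log2 scale being 0.029, beside backgrounds of 28.9% higher and 29.8% lower over all genes tested.

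Partners and relatives of the Aurora and Polo kinases were mostly higher, with 13 of 18 higher, 1 lower and a median change of 0.38 on the log2 scale. The largest rises were those of BORA (log2 fold change 0.87, standard error 0.0850, adjusted p = 1.98e-06), which helps Aurora A to activate PLK1, and of GTSE1 (log2 fold change 0.86), a microtubule-associated protein of G2 and mitosis. The smallest change among the genes called higher was that of NEK9 (log2 fold change 0.15), and NEK7, a kinase of the NIMA family, was the gene that fell (log2 fold change −0.20, adjusted p = 0.0156). The NEK7 call was lost in limma without BRL-50481 replicate 2 (adjusted p = 0.0798) or replicate 3 (adjusted p = 0.0582), and the NEK9 call without any 1 of the libraries other than DMSO replicate 1 (adjusted p = 0.0597 to 0.128). Partners of AURKB in the chromosomal passenger complex rose by more than AURKB did, with log2 fold changes of 0.68 for BIRC5, 0.47 for INCENP and 0.37 for CDCA8, genes named after their values were seen and not compared with AURKB by a test. TPX2, the activator of Aurora A, likewise named after its value was seen, had a log2 fold change of 0.60.

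Genes that bind or regulate CDK1, or are related to it or to its cyclins, went both ways. Of these, 5 of 15 were higher and 8 lower, with a median change of −0.21 on the log2 scale. CDC25A, the member of the CDC25 family that also acts at the start of S phase, fell from 1837, 1912 and 1862 normalized counts in DMSO to 588, 574 and 557 in BRL-50481. All treated libraries were far below the controls (log2 fold change −1.70, standard error 0.0609, adjusted p = 5.97e-10), opposite in direction to CDC25B and CDC25C, and 2.98% of genes tested passed −1 downward with an adjusted p-value under 0.05. CCNF, cyclin F, a ubiquitin ligase subunit that binds no CDK, rose from a mean of 408 ± 20.3 normalized counts (SD, n = 3) to 857 ± 42.2 (SD, n = 3), which on the log2 scale was a change of 1.07. All 3 subunits of the CDK-activating kinase, which phosphorylates CDK1 in its activation loop, were lower, with log2 fold changes of −0.87 for CCNH, −0.25 for CDK7 and −0.21 for MNAT1, whose call was lost in limma without BRL-50481 replicate 2 (adjusted p = 0.0533). WEE1, the kinase that holds CDK1 inactive, fell by 0.24 on the log2 scale (adjusted p = 0.00433), and its relative PKMYT1 did not pass the threshold (log2 fold change −0.068, standard error 0.0817, adjusted p = 0.492). CKS1B was lower (log2 fold change −0.58) and CKS2 did not pass (log2 fold change 0.019, adjusted p = 0.812). The CDK-activating kinase, WEE1, PKMYT1 and the CKS genes were named after their values were seen. The number of higher genes in this list fell to 3 without DMSO replicate 3, without BRL-50481 replicate 1 or without BRL-50481 replicate 3.

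In the list of the APC/C with its coactivators, inhibitors and targets, 9 of 23 were higher and 8 lower, and the median change of −0.12 on the log2 scale became 0.0079 after correction for transcript length and GC content. ANAPC15, an APC/C subunit that helps release the checkpoint complex, rose most (log2 fold change 0.97, standard error 0.0886, adjusted p = 1.08e-06), followed by ESPL1, the separase that cuts cohesin (log2 fold change 0.61). CDC26 (log2 fold change −0.84) and ANAPC5 (log2 fold change −0.47), both APC/C subunits, fell most. FZR1, which takes over from CDC20 as APC/C activator at mitotic exit and was named after its value was seen, was higher (log2 fold change 0.36, adjusted p = 0.000558).

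Of the genes for Greatwall kinase and the mitotic phosphatases, 2 of 13 were higher and 6 lower, and the median change on the log2 scale was −0.14. PPP1CB, a catalytic subunit of protein phosphatase 1 (log2 fold change 0.39), and PPP2R2D, a B55 subunit of protein phosphatase 2A (log2 fold change 0.31), were the higher ones. PPP2R2A, another B55 subunit, fell by 0.45 on the log2 scale and PPP1R2, an inhibitor of protein phosphatase 1, fell by 0.34. MASTL, the Greatwall kinase that keeps B55 inhibited during mitosis, was lower as well (log2 fold change −0.34) and was named after its value was seen.

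**Figure D4:**
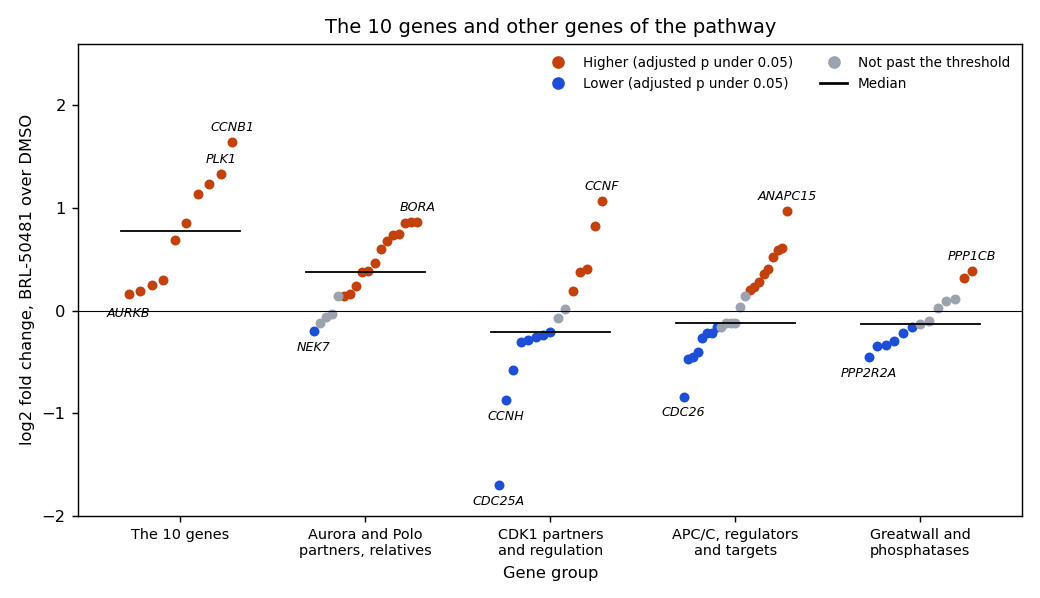
Log2 fold change of BRL-50481 over DMSO (y axis) for the 10 genes and the 4 role lists (x axis), with 1 point per gene tested, orange for higher and blue for lower at an adjusted p-value under 0.05, grey for neither, and a black line at each median. The 10 genes and most partners of the Aurora and Polo kinases lie above 0, and the other 3 lists spread to both sides, with CDC25A lowest at −1.70.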

How the data were processed

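The values that the authors deposited are a signal per gene and library, namely read counts divided by a size factor. Per the study's methods, the authors aligned single-end reads to hg38 with STAR 2.7.1a, ran htseq-count on UCSC gene models with the reverse-strand setting, and normalized with DESeq2 1.28. The labels describe oligo-dT selection and the series record ribosomal RNA depletion. The deposited mean signal, and the authors' own log2 fold changes with standard errors, Wald score and p-values as deposited, were not used. Dividing each library by the step that 1 read is worth gave whole numbers throughout (within 0.01 reads), hence the reads per library, and intervals cover the spread between libraries only. The labels call the libraries replicates and the series record biological replicates.

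Genes were kept where 3 or more samples reached a normalized count of 4, the filter of the study's methods, which left out 405 genes. Log2 values with 1 added were compared with limma 3.58.1 in R 4.3.3 (lmFit, eBayes with a trend), with group as the only term. The step was tested on simulated data in which few genes changed and all libraries had the same spread. That setting is simpler than these data, so the test does not vouch for the calls made here. The 10 genes, the role lists, the pairs and the tests were chosen with earlier results of these data known. Genes named from the lists are those called with a log2 fold change beyond 1 in either direction, otherwise the 2 highest and 2 lowest changes among those called. The 5 genes of most similar profile were taken by root mean square difference. Lengths and GC content came from canonical transcripts of GENCODE release 44 on hg38, matched by symbol for 14216 genes and by an older symbol for 889 (96.5% in all). No exon of the 10 genes overlaps another annotated gene on the same strand. Promoter windows came from RefSeq on GRCh38.p14. Permutation tests used scipy 1.17.1. Across all genes tested, deviations of same-numbered libraries of the 2 groups were nearly uncorrelated. The alternatives tried are given in the closing section.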

Additional observations from a re-analysis of the deposited data

How the results depend on the processing

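The alternatives were limma without a trend, median centring, quantile normalization, a pseudocount of 0.5 or of 4, dropping the filter or requiring a mean of 20, the replicate number as a block, a correction for transcript length and GC content with and without that block, and leaving out each library. The planned count-based tests were not run. CDK1, CCNA2, CCNB1, CCNB2, PLK1, AURKA, CDC25B and CDC25C stayed higher in limma at an adjusted p-value under 0.05 under all 16 alternatives. Without a trend, AURKB (0.17, adjusted p = 0.0615) and CDC20 (0.19, adjusted p = 0.0526) did not pass, and 3 genes of the CDK1 list were higher and 0 of the Aurora and Polo list lower. With each library left out, AURKB lay between 0.14 and 0.21, CDC20 between 0.16 and 0.25, the CDK1 list had 3 to 5 genes higher, and the Aurora and Polo list 0 to 1 lower. Adjusted p-values over all alternatives reached 0.111 for AURKB and 0.0552 for CDC20. Median centring, and the length and GC correction with and without the block, each gave 4 higher genes in the phosphatase list. The median of the APC/C list turned to 0.0079 under that correction, with and without the block. Deviations of same-numbered libraries correlated at 0.0157, 0.000299 and −0.0172 across all genes tested. Among the 10 genes, replicate 2 of either group had 8 above its group mean. Replicate 1 of either group had a negative median deviation. Whether same-numbered libraries share more than a number was not tested. With the replicate block 4440 genes were higher and 4589 lower (4400 and 4546 without it), with all 10 genes higher. The pair differences were rerun only with the pseudocounts and the left-out libraries. Leaving out 1 of 3 libraries cannot move a difference by more than the spread between replicates used as the yardstick. The pseudocounts are small beside the counts of these genes, so neither could show the differences to be unstable. The cause of the shifts in calls and medians between alternatives was not tested. Without 1 library or without a trend, calls were also lost for NEK7, NEK9, PLK4, MNAT1, CHEK1, CCNB3, ANAPC1, CDC23 and PPP2CA in the role lists.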
